A study of Mus musculus with 2 samples.

Results

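The cytosolic ribosomal protein genes are the genes for the structural proteins of the large (Rpl) and small (Rps) ribosomal subunits. They were chosen by symbol in the platform's annotation of the probes, with the Rps6k kinase genes left out. The choice took in 66 of 19321 named genes, measured by 68 of 23473 probes: 40 of the large and 26 of the small subunit. Rplp0, Rplp1 and Rplp2, the stalk proteins, were not among the annotated probes used here, whereas Rpsa was. All 66 genes were above background on both arrays, so the filter on background removed none. That filter asked for 1 array or the other and kept 18498 of the 19321 named genes, so passing it was common. The symbol of all 66 members matched the current RefSeq gene of the same Entrez number.

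The tissue was gastrocnemius, a calf muscle, of female mice aged 10 weeks, with 1 muscle sample on 1 array in each group. The mouse called depleted was Pdgfra-CreER:R26-DTA: its Cre recombinase, active after tamoxifen, is driven by the Pdgfra promoter, and Cre allows the Rosa26 locus to produce the lethal A chain of diphtheria toxin. The control was a wild type:R26-DTA littermate, which carried the toxin allele without CreER. Tamoxifen was given to both over 5 days, starting at 9 weeks, and 2 days after the final dose the muscles were frozen. The comparison bears on how muscle gene expression differs after the loss of PDGFRα-positive mesenchymal progenitors. With 1 array in each group no replicate and no p-value can be given. The presence of CreER and the depletion cannot be told apart, nor can the array and the group, and the differences described are between these 2 arrays.

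Ribosomal proteins surround and stabilise the ribosomal RNA, and their assembly begins in the nucleolus. Their messenger RNAs are among the most abundant of any cell and are made in matched amounts. Most of these messengers start with a run of pyrimidines, through which mTORC1 and the RNA-binding protein Larp1 control their translation, so the messenger's level and the output of protein can differ. In muscle, the content of ribosomes sets much of the capacity to make protein, and it falls in wasting and grows in hypertrophy. A whole-muscle extract mixes all cell types, and fewer cells of a type and less RNA per cell cannot be told apart in it.

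Start regions from the RefSeq promoter table (build GRCm38.p6) are shown for 4 members at the top and 2 at the bottom of the ratios described further on, because co-regulated members of this family are known to share promoter elements. Each stretch runs from 160 bases before to 20 bases after the first listed start, 5′ to 3′ on the gene's strand. Capitals mark the letters CGGAAG or, on the other strand, CTTCCG, the core that ETS family factors such as GABP bind; the match of Rpl10 and Rpl27a lies outside the stretch shown, and Rpl3l has none.
Rps27 (chr3:90213629-90213808, minus strand): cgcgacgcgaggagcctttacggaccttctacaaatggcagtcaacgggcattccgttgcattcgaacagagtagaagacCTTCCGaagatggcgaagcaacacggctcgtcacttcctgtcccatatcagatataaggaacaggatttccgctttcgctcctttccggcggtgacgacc
Rpl10 (chrX:74270656-74270835, plus strand): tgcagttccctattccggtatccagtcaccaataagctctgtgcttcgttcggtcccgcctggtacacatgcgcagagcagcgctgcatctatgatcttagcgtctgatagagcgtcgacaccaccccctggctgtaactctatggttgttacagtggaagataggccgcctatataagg
Rpl36a (chrX:134585494-134585673, plus strand): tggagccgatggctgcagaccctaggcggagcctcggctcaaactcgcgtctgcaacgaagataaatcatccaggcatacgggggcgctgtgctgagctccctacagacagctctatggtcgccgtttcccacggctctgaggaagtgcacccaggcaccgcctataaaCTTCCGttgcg
Rps6 (chr4:86857348-86857527, minus strand): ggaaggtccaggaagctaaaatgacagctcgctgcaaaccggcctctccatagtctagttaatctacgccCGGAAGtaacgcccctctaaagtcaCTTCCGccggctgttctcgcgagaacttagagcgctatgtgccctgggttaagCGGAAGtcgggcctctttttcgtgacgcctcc
Rpl3l (chr17:24727666-24727845, plus strand): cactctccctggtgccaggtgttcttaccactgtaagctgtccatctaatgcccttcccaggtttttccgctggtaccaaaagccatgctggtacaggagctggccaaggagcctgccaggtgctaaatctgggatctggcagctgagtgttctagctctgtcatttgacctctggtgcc
Rpl27a (chr7:109519035-109519214, plus strand): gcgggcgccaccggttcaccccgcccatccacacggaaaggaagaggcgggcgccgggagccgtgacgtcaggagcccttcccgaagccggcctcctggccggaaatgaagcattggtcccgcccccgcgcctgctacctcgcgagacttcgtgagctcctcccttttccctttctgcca

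Of the 66 members, 52 had an entry in that table, which gives 300 bases per start. The letters CGGAAG, on either strand, stood in the promoters of 36 of these 52 genes (69.2%) and of 3749 of 15061 other genes on the array (24.9%). A run of at least 8 bases that were all C or T, on the gene's strand and within 40 bases before to 20 bases after a listed start, was found in 29 of 52 members (55.8%) and in 27.0% of the other genes. The members with CGGAAG had a median log2 ratio, depleted over control, of 0.18, and the 16 without it one of 0.03; with the run of pyrimidines the median was 0.11 and without it 0.18. The ratios of the groups with and without each motif overlapped over most of their range, from -0.40 to 0.88 with CGGAAG and from -0.48 to 0.46 without it. A match is a description of these letters and not of a bound factor.

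Relative to the genes as a whole, ribosomal protein genes were slightly higher on the array of depleted muscle. Of the 66 members, 50 were higher and 16 lower, where 47.4% of all 18498 genes compared were higher and 52.4% lower. Their median log2 ratio was 0.12, against 0.00 over all genes, and single members ran from -0.48 (Rpl3l) to 0.88 (Rps27). The authors' deposited values, which carry a separate scaling of each array, gave 45 members higher and 20 lower with a median of 0.10, where 48% of all genes were higher and 50.7% lower. Past 1.5-fold in those values were 2 members higher (Rps27 and Rpl39l) and 0 lower, against 9.06% and 7.05% of all genes. The size of the shift depended on the scaling: 61 members were higher with each array scaled to its median probe (median 0.36, with 45.5% of all genes higher and 54.5% lower) and 42 with cyclic loess (median 0.05, with 49.8% higher and 50.2% lower). Past 1.5-fold were 8 members with the former, where 4.84% of all genes were, and 1 with the latter, where 2% were.

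Few members differed by much in the normalized values. Past 1.5-fold, 2 members were higher and 0 lower, where 1.96% of all genes were 1.5-fold higher and 1.52% lower; this share is near the background. None was past 2-fold, where 0.492% of all genes were higher and 0.427% lower. At a looser limit, 9 members were at least 25% higher and 2 at least 20% lower, against 5.92% and 5.52% of all genes. The only measure of technical spread is that of the positive control spots: for 24 repeated spots of each of 2 controls, the difference between the arrays had an SD of 0.14 and 0.15 on the log2 scale. As scanned, these spots were themselves brighter on the depleted array. Their medians went from 858.6 (control) to 1812.8 (depleted) and from 5787.6 to 9684.8, a shift that the SD leaves out. Both rises were past 1.5-fold and larger than the members' median log2 ratio as scanned, which was 0.49. No setting scaled the arrays to these spots, so the sign of the members' shift holds only for the scalings used. By 2 times the larger SD (0.30), 55 of 66 members lay within the spread of repeated spots, 9 lay above it (6.58% of all genes did) and 2 below it (6.2% of all genes). These counts depended on the scaling. With scaling to the median, 40 members lay above that spread and 0 below it (15.2% and 2.23% of all genes), with cyclic loess 5 and 2 (6.85% and 6.12%), and in the deposited values 9 and 3 (21.6% and 21.3%). The spread of repeated spots holds no difference between animals.

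**Figure D1:**
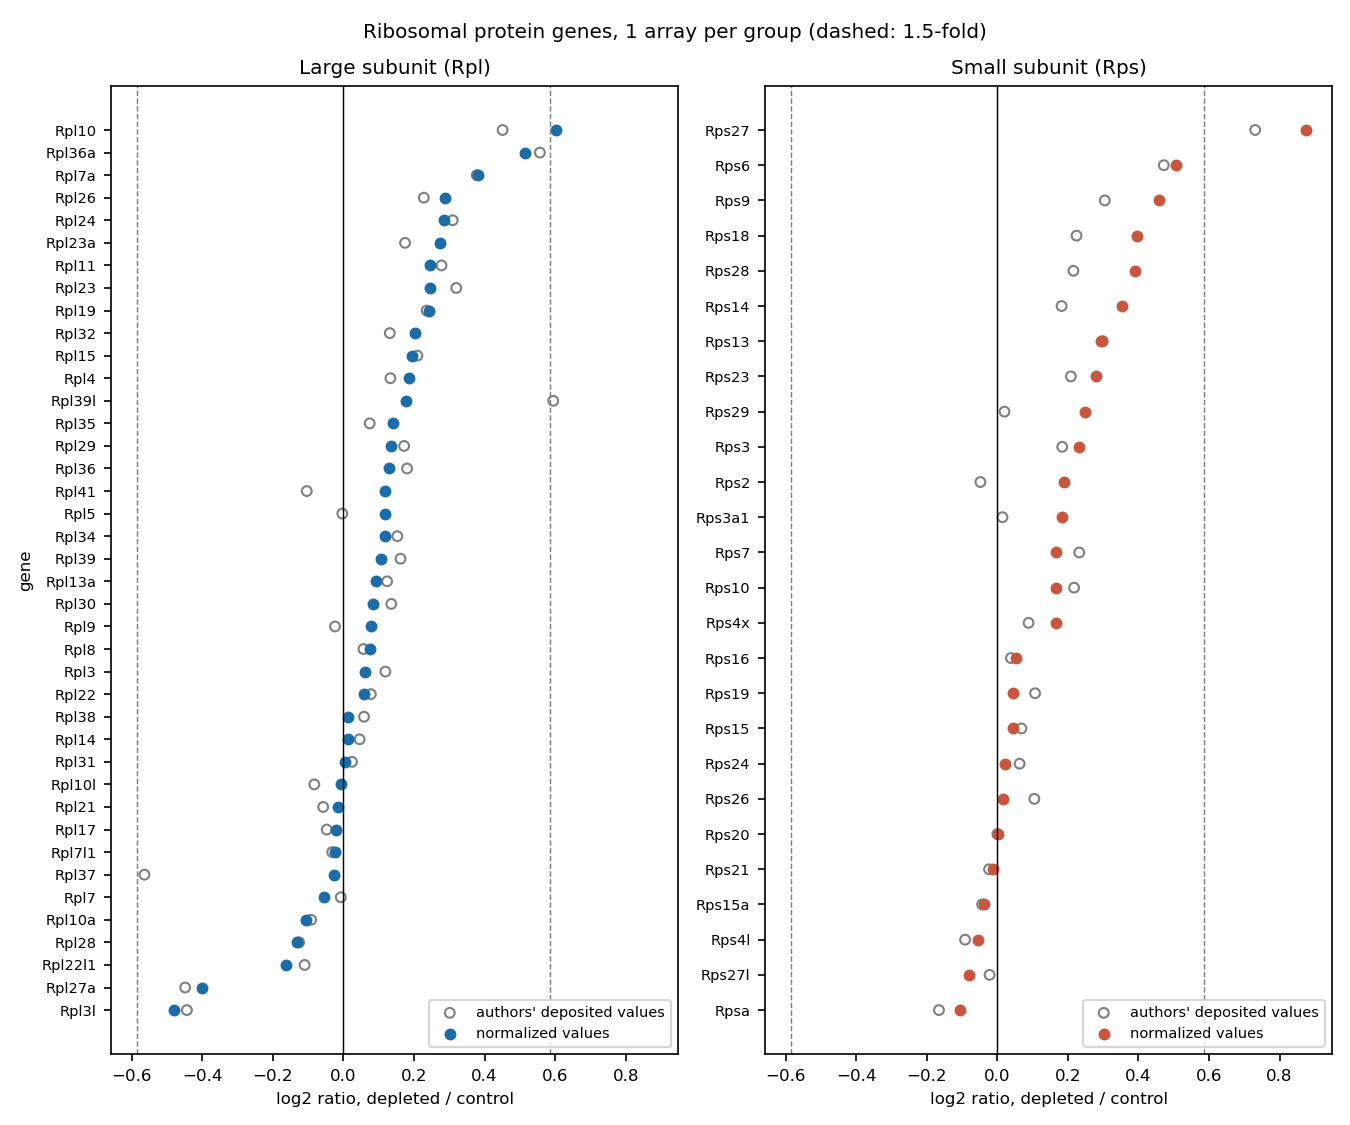
Log2 ratio of depleted over control muscle (horizontal axis) for each of the 40 large subunit and 26 small subunit genes, with filled points for the normalized values and open points for the authors' deposited values. Most points lie between 0 and 0.30; Rps27 is at 0.88 and Rpl10 at 0.60, past the dashed 1.5-fold line, and Rpl3l is lowest at -0.48.

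Among small subunit genes, Rps27, a zinc finger protein, had the highest ratio of any member. Its deposited values were 8376.9 (control) and 13901.6 (depleted), and its normalized values were 1.83-fold higher, a log2 ratio of 0.88. It stayed past 1.5-fold under every setting tried, from 0.64 with cyclic loess to 1.04 with scaling to the median, apart from 2.84 with the local background column subtracted. Rps6 is the main substrate of the S6 kinases, and its phosphorylation, not measured here, serves as a readout of mTORC1 activity. Rps6 had deposited values of 5314.5 and 7369.6 and a ratio of 0.51. Rps9, which lies near the messenger's entry channel, went from 7891.0 to 9745.5, with a ratio of 0.46. In the normalized values these 3 genes were higher on the depleted array by more than the spread of repeated spots, and in the deposited values they were at 0.73, 0.47 and 0.30. With cyclic loess they were at 0.64, 0.39 and 0.22, the last of which lies inside that spread.

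Further small subunit genes on that side were Rps18 of the subunit's head, at 0.40, Rps28 at 0.39 and Rps14, whose loss underlies a human macrocytic anaemia, at 0.35. Rps18 had deposited values of 10160.7 (control) and 11871.1 (depleted), and Rps14 had 9332.5 and 10588.3. The second probe of Rps28 read 0.32, so both of its probes gave a similar value. In the deposited values Rps18, Rps28 and Rps14 were at 0.22, 0.22 and 0.18, inside the spread of repeated spots. Rps13 was at 0.29, inside that spread. Over all 26 small subunit genes the median was 0.17, with 21 higher and 5 lower, against 0.10 for the large subunit, with 29 higher and 11 lower. In the deposited values both medians were 0.10, with scaling to the median they were 0.39 (small) and 0.32 (large), and with cyclic loess 0.04 and 0.05, so the order of the subunits depended on the scaling.

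Rps2, a protein of the messenger entry site and the member with the brightest probe, had deposited values of 19833.2 (control) and 19183.4 (depleted). Its normalized ratio was 0.19, and it turned to -0.16 with cyclic loess. Rps29, with 14608.1 and 14814.3, was at 0.25 and turned to -0.08 with cyclic loess. For these very bright probes the direction thus depended on the normalization. Rpsa, also known as the laminin receptor, was dim, with deposited values of 77.5 and 69.1 and a ratio of -0.11, which turned to 0.03 with scaling to the median. Rps24 and Rps20 were among the 5 dimmest, at 0.02 and 0.00, and Rps15a was at -0.04.

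Among large subunit genes, Rpl10, which joins late in the maturation of the subunit and reaches toward the peptidyl transferase centre, had the highest ratio. Its deposited values were 9263.8 (control) and 12665.1 (depleted), and its normalized values were 1.52-fold higher, a log2 ratio of 0.60. It fell short of 1.5-fold in the deposited values (0.45) and with cyclic loess (0.36). Rpl36a went from 3193.1 to 4697.3, with a ratio of 0.52, and Rpl7a from 5354.1 to 6957.8, with a ratio of 0.38. All 3 were higher under each of the 12 settings that leave the local background column aside, although those that change only the filter could not alter their values.

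Rpl5 and Rpl11, which with the small ribosomal RNA of the large subunit can bind Mdm2 and so stabilise p53, did not stand apart from the other members. Rpl11 had deposited values of 3130.9 (control) and 3796.5 (depleted) and a ratio of 0.25, inside the spread of repeated spots. Rpl5 had 9062.8 and 9043.6 and a normalized ratio of 0.12, which turned to -0.09 with cyclic loess. Rpl41, the shortest of these proteins, had 12691.4 and 11811.1, and its normalized ratio of 0.12 turned to -0.10 in the deposited values. The 2 probes of Rpl9 disagreed in sign: the brighter read 0.08, with deposited values of 8580.7 and 8440.5, and the dimmer -0.17, with 73.8 and 60.2.

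In the normalized values 2 members were lower on the depleted array by more than the spread of repeated spots, Rpl3l and Rpl27a, whereas with scaling to the median both were at -0.13, inside that spread. As scanned, both were nearly equal on the 2 arrays: Rpl3l read 3162.7 (control) and 3154.2 (depleted), and Rpl27a 331.9 and 330.7. The spot of Rpl27a was dimmer than the medians of both positive controls, so the spread was not measured at its level. Rpl27a, a protein of the large subunit, had deposited values of 376.2 (control) and 275.7 (depleted), and its normalized values were 1.32-fold lower, a log2 ratio of -0.40. Its ratio stayed below 0 under each of the 12 settings without the local background, from -0.47 to -0.13. Rpl28 (-0.13), Rpl10a (-0.11) and Rpl7 (-0.05) were inside that spread, and all 3 turned positive with scaling to the median. Rpl37 and Rpl21 were among the dimmest, at -0.03 and -0.01; the deposited values of Rpl37 were 3.4 and 2.3, close to the blank spots.

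Some ribosomal protein genes have a paralogue, in some cases with a restricted pattern of expression, and 7 paralogues were measured. Rpl3l is the form of Rpl3 made in skeletal muscle and heart, and Rpl3 itself helps shape the peptidyl transferase centre. Rpl3l had deposited values of 3978.6 (control) and 2925.7 (depleted) and was 1.39-fold lower, a log2 ratio of -0.48, whereas Rpl3 had 851.8 and 925.1 and a ratio of 0.06. The ratio of Rpl3l was thus 0.54 below that of Rpl3 on the log2 scale, and 0.56 below it in the deposited values. Rpl3l was at -0.44 in the deposited values, -0.49 with cyclic loess and -0.13 with scaling to the median, and it turned to 0.25 with the local background column subtracted.

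Rps27l, a paralogue of Rps27 that p53 induces, had deposited values of 2575.5 (control) and 2536.4 (depleted). Its ratio was -0.08, which lies 0.96 below that of Rps27, the widest gap of the 7 pairs. Rpl22l1, the paralogue of the RNA-binding Rpl22, had 2590.4 and 2400.6 and a ratio of -0.16, and Rpl22 was at 0.06. Rps27l and Rpl22l1 turned to 0.28 and 0.20 with scaling to the median.

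Rps4l was at -0.06 and its parent Rps4x, an X-linked gene, at 0.16. Rpl7l1, which acts in ribosome assembly, was at -0.02 and Rpl7 at -0.05. Rpl10l and Rpl39l are forms made mainly in the testis, and both were dim here. Rpl10l had deposited values of 5.4 and 5.1 and a ratio of -0.01. Rpl39l had 19.6 and 29.6, and its ratio of 0.18 was 0.59 in the deposited values, past 1.5-fold, while Rpl39 was at 0.11. In all, 6 of the 7 paralogues had a ratio below 0, where 52.4% of all genes did, with a median of -0.06. A lower ratio than the parent was found for 5 of them. In the deposited values Rpl7l1 also lay below its parent, by 0.02. The median of the paralogues was 0.18 with scaling to the median, where the 59 other members had 0.40. Those 59 members had a median of 0.13 in the normalized values, with 49 higher and 10 lower.

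The shift was larger among members with bright probes. Of the 42 members with a mean normalized log2 intensity of 10 or more, 37 were higher, with a median of 0.19; the limit was chosen after the values had been seen. Other genes of that brightness, 816 in number, had a median of -0.03, with 45.5% higher. In the deposited values 33 of the 42 were higher, with a median of 0.17, against 47.5% and -0.03 for the other bright genes. With cyclic loess 28 of the 42 were higher, with a median of 0.09, against 353 of 816 and -0.08. With scaling to the median the medians were 0.47 and 0.27. The groups were not matched for brightness above that limit. The 24 dim members had a median of 0.00, with 13 higher and 11 lower, where 47.4% of the 17616 other dim genes were higher. The offset draws dim probes toward 0; in the deposited values the dim members had a median of 0.01. Brightness depends on the probe as well as on the transcript, so it gives no order of abundance among these genes.

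**Figure D2:**
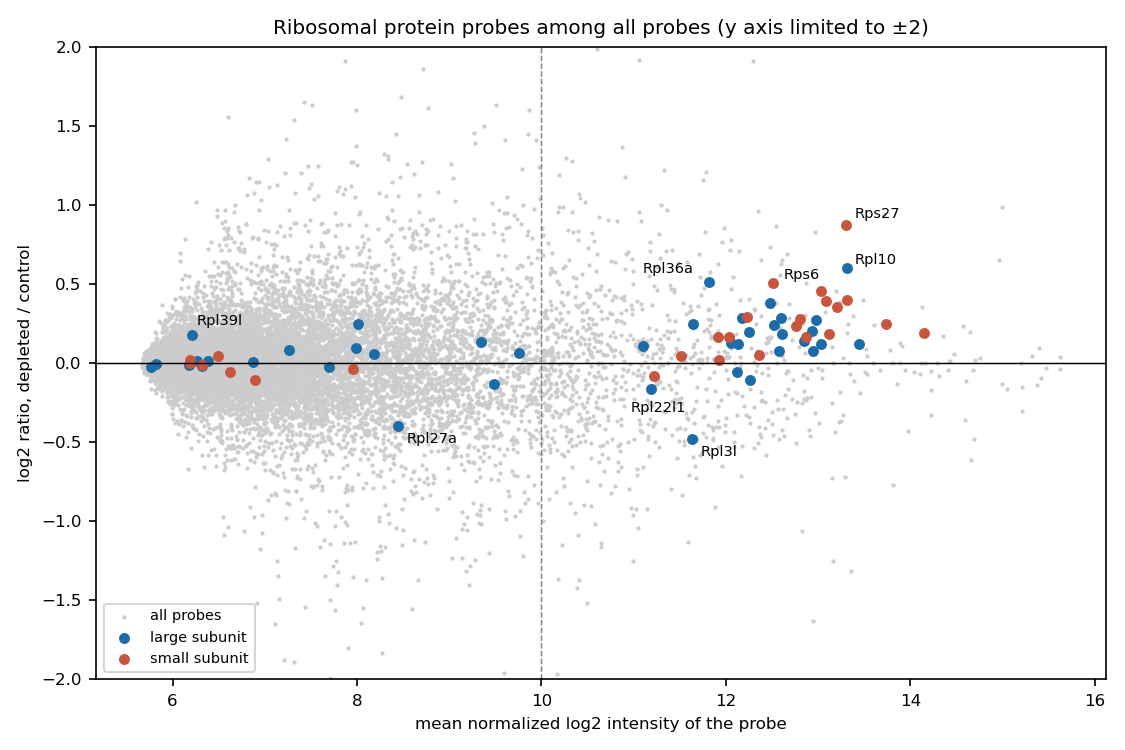
Log2 ratio of depleted over control muscle (vertical axis, limited to 2 in each direction) against the mean normalized log2 intensity of the probe (horizontal axis), with all probes in grey and ribosomal protein probes coloured by subunit. The 42 members to the right of the dashed line at 10 lie mostly above 0 (median 0.19), and the 24 to its left lie around 0 (median 0.00).

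On the scanner itself, before any normalization, the depleted array was brighter as a whole. Spot intensities were higher on it for 64 of 66 members, but also for 91.4% of all genes, and 24 members were past 1.5-fold, where 9.75% of all genes were, with a median log2 ratio of 0.49 for the members and 0.14 for all genes. Most genes are dim, and bright genes as a whole shifted more. The 42 bright members had a median of 0.60, with 23 past 1.5-fold. For the 816 other bright genes the median was 0.40, with 256 past 1.5-fold. Of all intensity over the probes, the 68 ribosomal protein probes held 3.89% in control and 4.69% in depleted muscle. The brightest member spot read 15622 in control and 20477 in depleted muscle, below the highest probe spots of 51523 and 50836, so the members' spots were not at the top of the range.

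Genes for other parts of the translation machinery were set beside the ribosomal proteins. The lists were chosen with earlier results of these data known. Genes of ribosome biogenesis, the factors that process ribosomal RNA and assemble the subunits, had a median of 0.22, with 40 of 49 higher. The nucleolar GTPase Gnl3 was at 0.96, with deposited values of 263.4 and 572.6, Mphosph10 of the small subunit processome at 0.74 and Sbds, which helps release an assembly factor from the large subunit, at 0.73. Of these 49 genes, 5 were 1.5-fold higher and 0 lower. Genes of RNA polymerase I, which transcribes ribosomal RNA, had a median of 0.08, with 14 of 19 higher, led by Taf1d at 0.61, Polr1d at 0.53 and Cd3eap at 0.49.

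Initiation factors had a median of 0.16, with 26 of 32 higher. The poly(A) binding protein Pabpc1 was at 0.60 and the helicase Eif4a1 at 0.57, while Eif4e, which binds the messenger's cap, was at -0.84, with deposited values of 585.1 (control) and 306.9 (depleted). Elongation factors had a median of 0.06, with 5 of 9 higher. The muscle form Eef1a2 was at 0.31, Eef2 at 0.24 and Eef1g at -0.24; the last turned to 0.04 with scaling to the median. Fau and Rpl36al, which also encode ribosomal proteins but fall outside the rule on symbols, were at 0.20 and 0.15.

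Factors that meet the nascent chain or the ribosome showed both signs: Serbp1 was at -0.46, Btf3 at 0.14, Nacad at 0.07, Naca at 0.03 and Hypk at -0.11, which turned to 0.22 with scaling to the median. Among 23 genes of the control by mTORC1, 12 were higher and 11 lower, with a median of 0.05. The inhibitors Sesn1 and Ddit4 were at 1.61 and 1.39, and Deptor, an inhibitor bound to the kinase, was at -1.37. Deposited values went from 216.4 to 787.6 for Sesn1, from 357.4 to 1053.6 for Ddit4 and from 649.0 to 218.5 for Deptor. These inhibitors thus differed in direction and by more than any ribosomal protein gene.

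Myc, a transcription factor that drives ribosome biogenesis, was at 0.74, with dim deposited values of 19.7 (control) and 71.5 (depleted). The MYC network had a median of 0.07, with 7 of 10 higher, among them Mlx at 0.22 and Mnt at 0.22. The S6 kinase relatives that the rule leaves out had a median of -0.01, with 1 of 5 higher: Rps6ka5 was at -0.22, Rps6ka3 at 0.15, Rps6kl1 at -0.04, Rps6kc1 at -0.01 and Rps6ka6 at -0.01.

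Subunit genes of 2 other large complexes lay on either side of the ribosomal proteins. Mitochondrial ribosomal proteins, which build the separate ribosome of that organelle, had a median of -0.10, with 24 of 78 higher and 52 lower. Mrpl48 was at -0.90, with deposited values of 897.7 and 469.7, Mrps28 at -0.60 and Mrpl28 at -0.54. Proteasome subunits had a median of 0.37, with 35 of 40 higher and 10 of them 1.5-fold higher. This list was taken by symbol and also holds genes whose products are not subunits, such as Psmc3ip at -0.05. Psmb8 was at 1.07, Psmd2 at 0.96, and Psmd4 had deposited values of 1867.7 (control) and 3884 (depleted). Cytosolic ribosomal proteins, at 0.12, lay between them under the other scalings too: with scaling to the median the mitochondrial, cytosolic and proteasome medians were 0.12, 0.36 and 0.69, with cyclic loess -0.09, 0.05 and 0.37, and in the deposited values -0.13, 0.10 and 0.43. The sign of the mitochondrial list therefore turned with scaling to the median, and the order of the 3 medians did not.

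**Figure D3:**
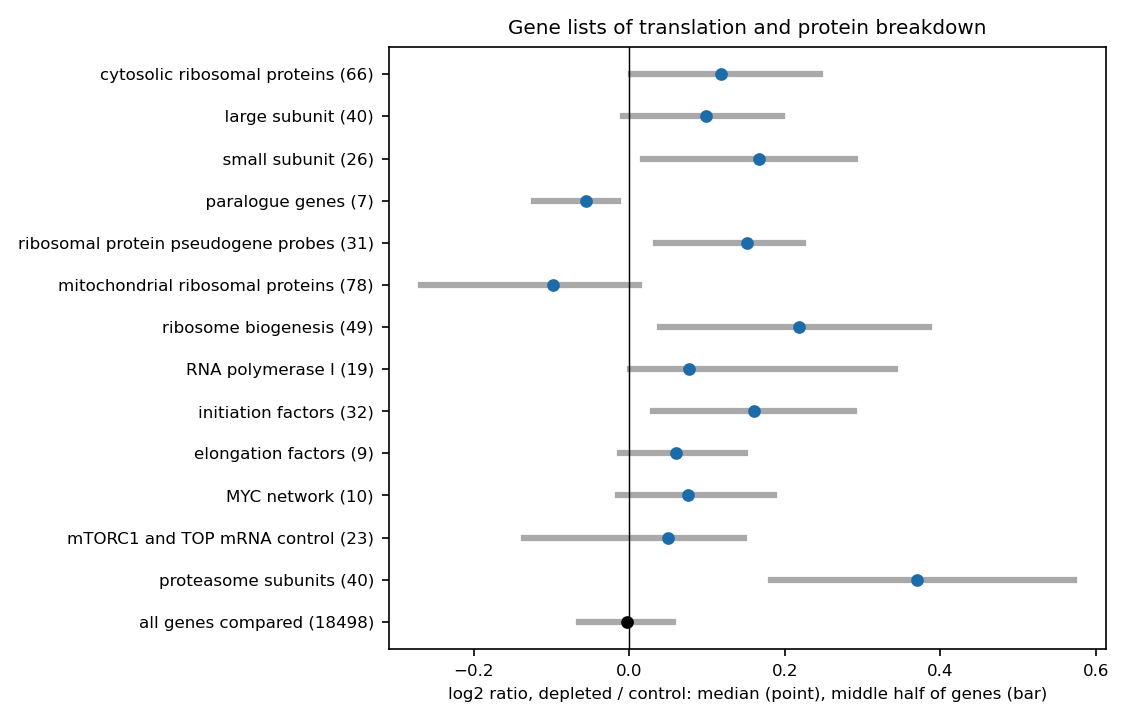
Median log2 ratio of depleted over control muscle (points) and the range from the lower to the upper quartile of the genes (bars) for ribosomal protein genes, their subsets and other lists, with the number of genes in brackets. The cytosolic ribosomal proteins (0.12) lie between mitochondrial ribosomal proteins (-0.10) and proteasome subunits (0.37).

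Markers of several cell types differed between the same 2 arrays, and their part in the ribosomal protein values was not tested. Pdgfra, the marker of the targeted cells, was at -0.94. Mesenchymal progenitor markers were lower in 18 of 19 genes, led by Lum (-1.84) and Col1a2 (-1.42), and their summed deposited level went from 25393 to 12574. Macrophage or monocyte markers were higher in 15 of 15 genes, led by Lgals3 (1.32) and Ctss (1.27), with sums of 5849.1 and 10601. Erythroid markers were lower in 6 of 6 genes, led by Hbb-bt (-3.30) and Hbb-b2 (-2.51), with sums of 33869 and 6050.2.

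Myofibre markers were lower in 7 of 12 genes, led by Pvalb (-1.25) and Myh1 (-0.43), with sums of 417607 and 301713. Their median was -0.04, and this list moved with the scaling: 11 of 12 were lower in the deposited values (median -0.40), and with cyclic loess 0 were higher (median -0.51). All 12 were above background in control muscle, as the labelled tissue has them. Endothelial markers were higher in 5 of 6 genes (Cldn5 0.83, Pecam1 0.40; sums of 422.6 and 629.6). Lymphocyte markers, with sums of 86.7 and 91.8, included Cd2 at 0.29 and Cd4 at -0.17, and muscle stem cell markers, with sums of 613.1 and 654.1, included Cdh15 at 0.58 and Cd34 at -0.46. Cd34 is also on the mesenchymal progenitor list. Its deposited values of 312.6 (control) and 214.6 (depleted) are a large part of the stem cell sums. None of the markers of these 7 lists was below background on the control array.

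**Figure D4:**
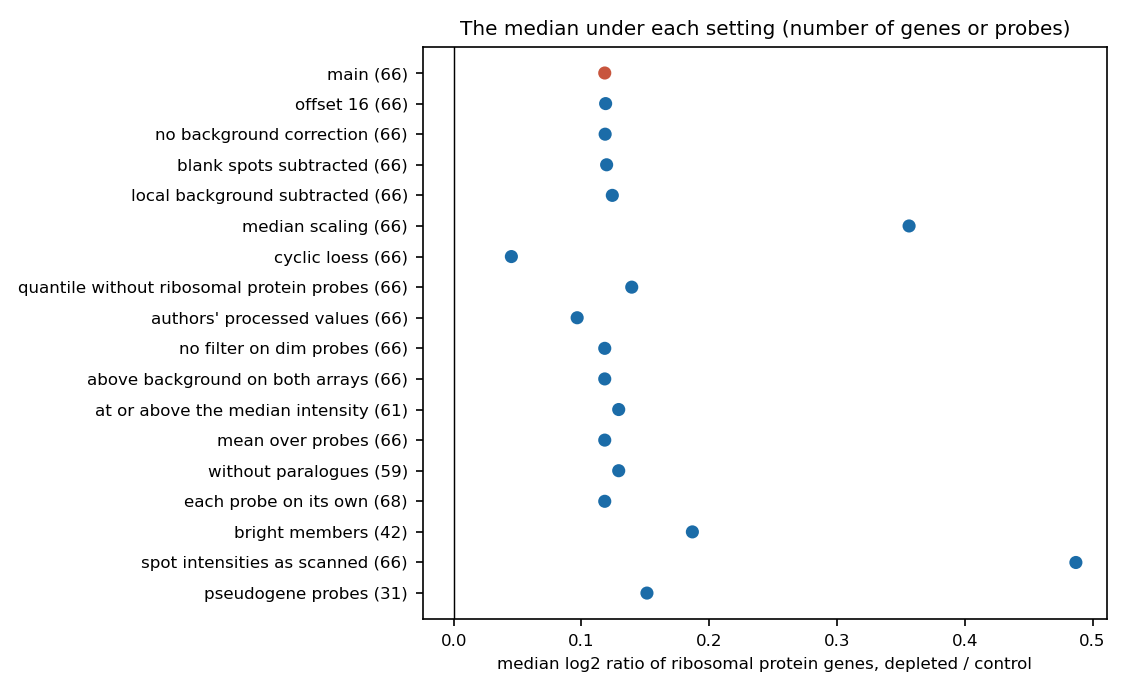
Median log2 ratio of the ribosomal protein genes, depleted over control (horizontal axis), under each processing setting (rows), with the number of genes or probes in brackets and the value as reported in red. The median lies above 0 under every setting shown, from 0.05 with cyclic loess to 0.36 with scaling to the median and 0.49 for the spot intensities as scanned.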

How the data were processed

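RNA of 2 muscle samples was amplified, coupled to Cy5 and hybridised to 1 array each, per the labels' protocols. The deposited scanner files hold an intensity for every spot (median over its pixels, read at 635 nm); the values are linear, come from 3 gains combined and have no background taken off, per the file headers. The authors also deposited processed intensity values, which on each array follow a straight line of the scanner value with a factor of 1.27 (control) or 0.939 (depleted); the sources used here do not state how these were made, nor a genome build.

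Intensities were corrected with normexp (offset 50) of limma 3.58.1 in R 4.3.3, put on the log2 scale and then quantile-normalized. A gene was represented by its brightest probe. The limit of background was the blank spots' mean plus 2 SD, and a gene entered the comparison if either array exceeded it; values under the limit were raised to the lowest level of a probe above it. No test was possible with 1 array per group, so counts and medians stand beside those over all genes. The number of arrays limits the precision. The background correction and quantile normalization alone were run on simulated data, with changes of 1.5-fold and 2-fold in probes well above background. That run did not cover the choice of probe, the filter or changes in dim probes. It placed no change as small as the members' median. Members, lists and thresholds were chosen with earlier results of these data known. The names are those of the rule: paralogues and their parents, the 10 highest and 10 lowest members, the 5 brightest and dimmest, members past 1.5-fold or with probes of opposite sign, and up to 3 genes per list (2 per marker list). Probes of these genes can share signal with pseudogenes, so each value is uncertain to that extent. Tables were handled with Python 3.11.15, pandas 2.3.3 and numpy 2.4.6, and plots drawn with matplotlib 3.10.9.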

Additional observations from a re-analysis of the deposited data

Results flagged for a closer look

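Probes of ribosomal protein pseudogenes lie outside the members, and they are given because they carry signal above the blank spots and mostly read higher on the depleted than on the control array. Of 31 such probes, 26 were higher on the depleted array, with a median log2 ratio of 0.15, and 0 were 1.5-fold higher. The 2 highest were Rpl10-ps2 at 0.47, with deposited values of 3827.4 (control) and 5438.1 (depleted), and Rps6-ps2 at 0.34, with 3349.2 and 4449.4. Of 27 pseudogene probes with a measured parent, 15 had the parent's sign. All 6 probes of Rpl21 pseudogenes were higher, from 0.14 to 0.28, whereas the dim probe of Rpl21 read -0.01. Rpl27a-ps2 was at 0.12 where Rpl27a was at -0.40. The pseudogenes were chosen after the values had been seen, and shared signal with the parents was not tested.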

How the results depend on the processing

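No paired analysis was possible because there was 1 array for each condition. The median of the members stayed above 0 under every alternative run, none of which scaled the arrays to the positive control spots. Of 61 members with a value under all 12 settings without the local background column, 39 were higher and 2 lower (Rpl3l and Rpl27a) under each. The filter at the median intensity dropped the other 5. A change of filter could not alter the value of a member that was kept. The mean over probes could alter only the 2 members with 2 probes. The same sign under these settings is therefore no added support. Values that moved were these. Scaling to the median gave a median of 0.36, 61 members higher and 8 past 1.5-fold. Cyclic loess gave 42 higher, 1 past 1.5-fold, and 4 of the 11 comparison lists with a median below that of the members, in place of 7. Subtraction of the local background column, which reached the spot's own level for 4 member probes, gave 38 higher, 23 past 1.5-fold higher, 21 lower and 4 lists below; with it Cldn5 (-0.16), Eif4e (0.67), Mrps28 (0.29), Psmd2 (-1.04) and Pvalb (8.99), each past 1.5-fold before, turned sign, as did 30 of 66 members, among them Rps9 (-8.84), Rps6 (-0.75) and Rpl3l (0.25). The shares over all genes with the local background subtracted are not given here, so these counts cannot be read as a result about the members. A threshold of 2-fold gave 0 higher members, and one of 25% higher or 20% lower gave 9 higher and 2 lower, by construction. Added after the data had been seen, the bright members alone gave 37 of 42 higher, and spot intensities as scanned a median of 0.49 with 64 higher. Of 439 values of named members under the alternatives, 355 kept their side of 1.5-fold and, where short of it, moved by under 0.1. These include 37 with no filter on dim probes, 37 with the filter on both arrays and 32 with that at the median intensity, which could not differ. They also include 36 with the mean over probes, which can move only genes with 2 probes. Another 26 of the 439 values came to lie past 1.5-fold, 2 fell short of it and 56 moved otherwise. For the others the cause was not tested. Signal over background limits the dim members, of which Rpl37 lay closest to the blank spots.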
